A study of Mus musculus with 3 samples.

Results

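CD4 T cells that had been activated in dialyzed medium with methionine added back (DM+Met) were compared with CD4 T cells activated in complete medium (CM), to see which programs of gene expression still differed once methionine was present. The comparison takes the 2 DM+Met libraries and the 2 CM libraries, 4 of the 6 libraries of the series, and 12770 of the 23282 gene rows had enough reads to be tested. No measured value chose the libraries or the rows beyond this minimum of reads. The cells were isolated from the spleens and lymph nodes of mice of the C57BL/6 strain and were stimulated in vitro for 72 h with anti-CD3/CD28 antibody at 2 µg/ml, which all 3 media share. CM is RPMI-1640 with 10% FBS. DM is a medium made from RPMI lacking amino acids and from dialyzed serum, and DM+Met is the same medium with methionine at 30 µM. CM and DM+Met thus differ in amino acids and in the small molecules that dialysis removes. Methionine itself may differ too, since its level in CM is not given in the labels and the paper reports some methionine in DM. The media cannot be told apart component by component. The remaining 2 libraries, from cells in DM, are given beside the comparison. Each medium is a single GEO sample holding 2 numbered files, which the study describes as 2 biologically independent samples, and p-values measure only the spread between these libraries.

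Activation through the T cell receptor and CD28 normally takes a CD4 T cell out of quiescence. The cell raises its uptake of sugar and amino acids, builds ribosomes, sterols and fatty acids, copies its DNA, divides, and switches on cytokines and effector proteins. Methionine enters protein synthesis and, as S-adenosylmethionine, is the methyl donor for DNA, RNA and histones. Genes of quiescence, such as those for lymph node homing receptors and the transcription factors that maintain them, are normally shut down in the same period and return when growth signals fall.

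Expression was measured from 500 ng of RNA per library with a 3′-end kit (Lexogen QuantSeq), which reads each transcript close to its poly(A) tail, so that levels do not scale with transcript length. Values are levels on the log2(CPM + 1) scale, where CPM is the read count of a gene relative to the TMM-scaled size of its library. Depth was about 8505000 to 12377000 reads per library. A single row, the ribosomal RNA precursor Rn45s, held 31.98% ± 1.33 (SD, n = 2) of the reads in CM, 17.8% ± 3.25 in DM+Met and 37.7% ± 0.780 in DM, and all results below were repeated with scalings that leave it out. The labelled cell type was checked on its markers. Cd4 measured 7.62 and 7.84 in CM and 7.89 and 8.13 in DM+Met, Cd3e measured 6.55 and 6.48 in CM and 7.16 and 7.23 in DM+Met, and of the 8 CD4 T cell markers tested only Cd5, a receptor that tunes T cell receptor signals, was called different (1.13 ± 0.26, adjusted p = 0.0162). The summed CPM of these 8 markers was 1470 and 1554 in CM and 1527 and 1592 in DM+Met.

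Of the 12770 genes, 1952 differed between DM+Met and CM at an adjusted p below 0.05 (15.3%), 884 of them higher in DM+Met (6.92%) and 1068 lower (8.36%). A gene is referred to as called when it passes this threshold, differences are DM+Met minus CM on the log2 scale, and ± is the standard error of the difference. The median size of a called difference was 1.48 in either direction, 673 of the higher and 789 of the lower genes exceeded 1, and the median difference over all genes tested was 0.06. Both DM+Met libraries lay above both CM libraries for 4115 genes (32.2%) and below them for 3662 (28.7%). Every called gene was among these, so that a lack of overlap in a called gene named below adds nothing to its call. The count rested on all 4 libraries, since 655 genes were called without CM library 1, 873 without CM library 2, 294 without DM+Met library 1 and 268 without DM+Met library 2, where the lone library left in a medium is assumed to vary like the others. Between DM and CM, a comparison that uses the same CM libraries, 2154 genes were called (16.9%), 996 higher (7.8%) and 1158 lower (9.07%). Between DM+Met and DM, limma called 7 genes (0.0548%), with 1238 at an unadjusted p below 0.05.

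**Figure D1:**
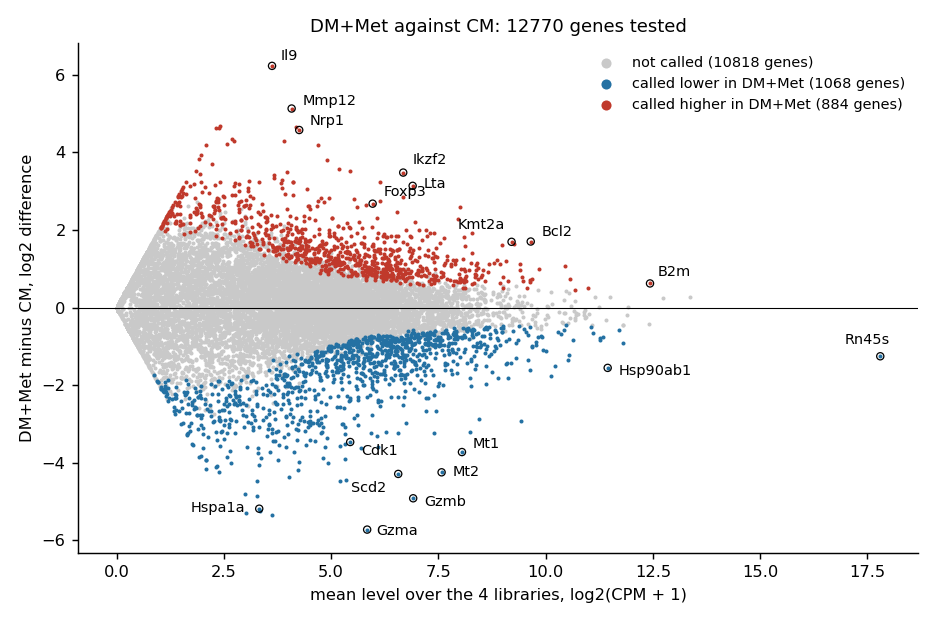
Each point is 1 of the 12770 genes tested, with its mean level over the 2 CM and 2 DM+Met libraries on the x axis (log2(CPM + 1)) and the difference DM+Met minus CM on the y axis (log2). Red points are the 884 genes called higher, blue the 1068 called lower and grey those not called. Labelled genes run from Il9 at 6.23 to Gzma at -5.72, while highly expressed genes such as B2m (0.62) and Hsp90ab1 (-1.55) lie closer to 0.

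The called genes were read through 48 lists of genes with a shared role, 1184 entries of which were tested. Lists for mitosis, hypoxia, sterols, glycolysis and replication held the greatest shares of called decreases, and lists for quiescence, regulatory T cells and effector cytokines the greatest shares of called increases. The plot of called shares by list gives all of them.

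**Figure D2:**
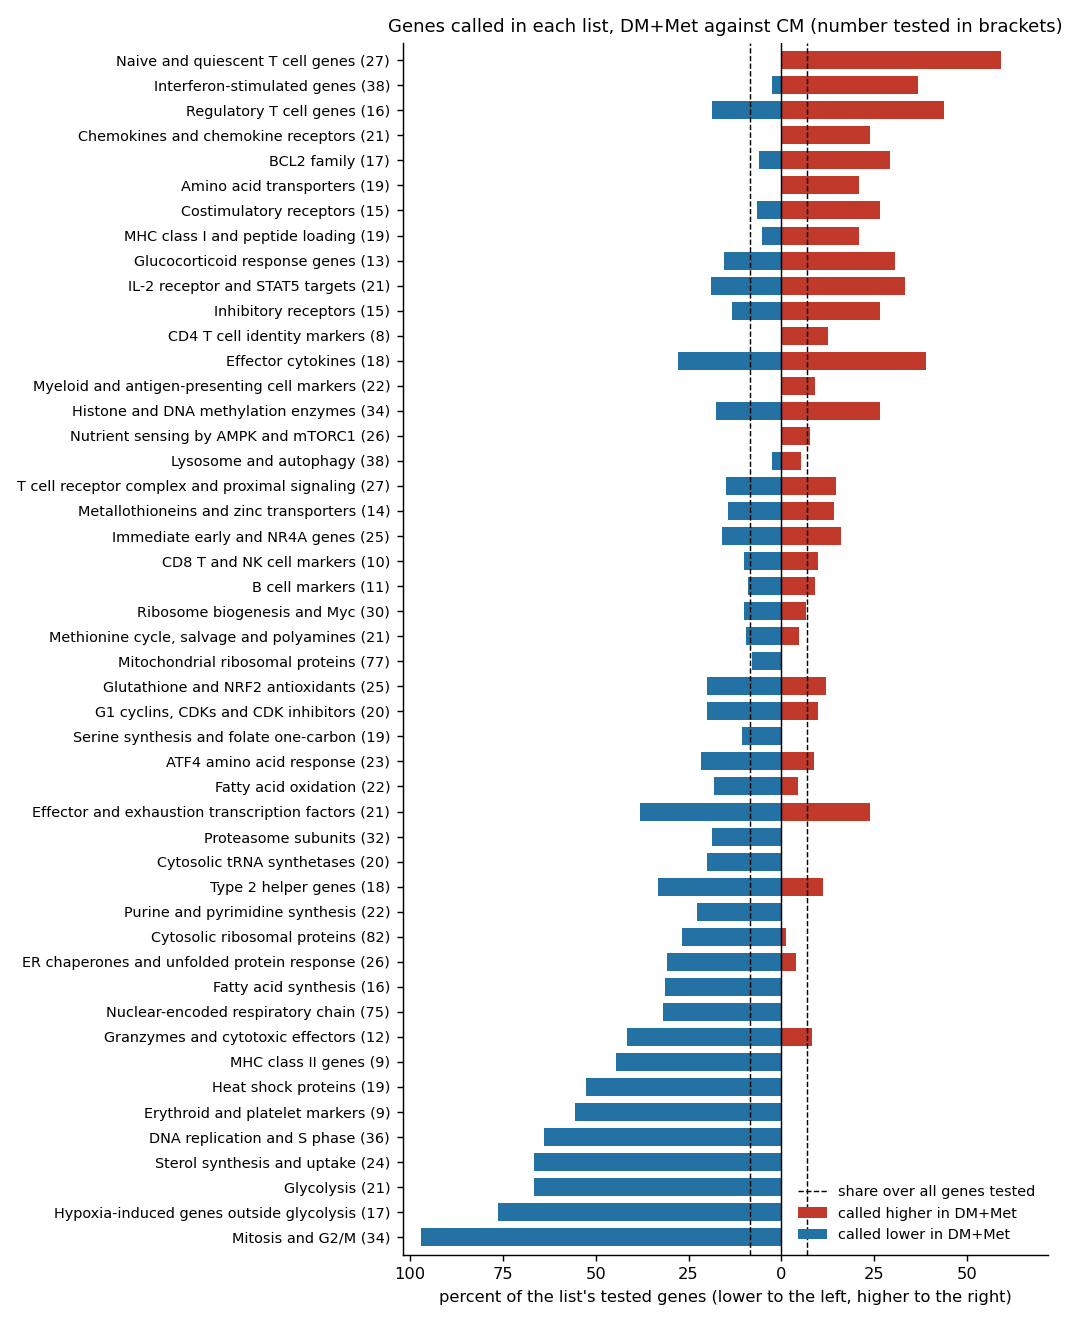
Bars give, for each of 48 gene lists, the percent of its tested genes that were called higher in DM+Met than in CM (red, to the right) or lower (blue, to the left), with the number tested in brackets. Dashed lines mark the shares over all genes tested, 6.92% higher and 8.36% lower. Mitosis and G2/M genes reach 97.1% lower, and naive and quiescent T cell genes 59.3% higher.

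Cell division genes were lower in DM+Met. In bulk samples, fewer cells of a kind and less RNA per cell cannot be told apart. In the mitosis and G2/M list, 33 of 34 genes were called lower (8.36% of all genes), with a list median of -3.27. Cdk1, the kinase that drives entry into mitosis, measured 7.32 and 7.04 in CM and 3.51 and 3.92 in DM+Met (difference -3.46 ± 0.33, adjusted p = 0.00019). Mki67, a nuclear protein of cycling cells, measured 8.22 and 8.23 in CM and 5.09 and 5.40 in DM+Met (difference -2.98 ± 0.23, adjusted p = 8.96e-05). Ube2c, a ubiquitin-conjugating enzyme of the anaphase-promoting complex, measured 7.70 and 7.40 in CM and 3.50 and 2.75 in DM+Met (difference -4.43 ± 0.33, adjusted p = 7.59e-05). In each case the DM+Met libraries lay far below the CM libraries, without overlap as in every called gene. Bub1, a kinase of the spindle checkpoint, had the greatest decrease of the list and measured 5.84 and 5.18 in CM and 1.78 and 0.32 in DM+Met (difference -4.46 ± 0.60, adjusted p = 0.00121). Birc5, the survivin subunit of the chromosomal passenger complex, measured 6.77 and 7.11 in CM and 2.49 and 3.39 in DM+Met (difference -4.0 ± 0.43, adjusted p = 0.000386). Cyclin B1 (Ccnb1) differed by -3.98 ± 0.74 (adjusted p = 0.0062) and the mitotic kinase Plk1 by -3.23 ± 0.36 (adjusted p = 0.000465). The list's remaining member, Kif20a, a mitotic kinesin named here because it alone fell outside the count, differed by -0.65 ± 0.34 (adjusted p = 0.234).

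DNA replication genes were lower too. Of 36 genes, 23 were called lower (63.9% against 8.36% of all genes), with a list median of -1.33. The 13 genes that did not pass lay between -1.65 and -0.25. Rrm2, the regulatory subunit of ribonucleotide reductase that makes deoxynucleotides, measured 6.41 and 6.10 in CM and 3.30 and 3.61 in DM+Met (difference -2.80 ± 0.36, adjusted p = 0.00105). Lig1, the ligase that joins lagging-strand fragments, measured 8.33 and 8.86 in CM and 6.52 and 6.70 in DM+Met (difference -1.98 ± 0.21, adjusted p = 0.000313). Chaf1a, a chaperone that deposits histones behind the fork, measured 5.11 and 5.15 in CM and 2.71 and 2.33 in DM+Met (difference -2.61 ± 0.47, adjusted p = 0.00536). Like every called gene, these 3 did not overlap between the media. Mcm5, of the replicative helicase, differed by -1.27 ± 0.32 (adjusted p = 0.0259), Cdc45, which activates that helicase, by -1.78 ± 0.52 (adjusted p = 0.0472), and Mcm10, an initiation factor, by -2.12 ± 0.58 (adjusted p = 0.0373). Cdc45 stayed called under 6 of 14 alternative settings and was not called with TMM or library totals without Rn45s. The sliding clamp Pcna measured 7.33 and 6.43 in CM and 5.95 and 5.86 in DM+Met (difference -0.97 ± 0.28, adjusted p = 0.0439); its difference was -0.52 without CM library 1 and -1.42 without CM library 2. In DM the medians of these lists were -2.76 for mitosis and -1.37 for replication, against the same CM libraries.

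Genes of the G1 phase were mixed. Of 20 cyclins, CDKs and CDK inhibitors, 2 were called higher (10%, near the 6.92% over all genes) and 4 lower (20% against 8.36%). Ccnd2, a D-type cyclin induced by mitogens, rose from 9.86 and 9.98 in CM to 10.98 and 10.98 in DM+Met (1.06 ± 0.13, adjusted p = 0.000844). Btg1, an antiproliferative factor, rose from 9.05 and 9.05 to 9.73 and 9.96 (0.80 ± 0.19, adjusted p = 0.0223). Ccne1, the cyclin of S-phase entry, fell from 4.97 and 4.89 to 2.74 and 3.08 (-2.01 ± 0.48, adjusted p = 0.0209). Of the CDK inhibitors, Cdkn1a (p21) and Cdkn2d (p19) fell, with differences of -0.79 ± 0.16 (adjusted p = 0.0103) and -1.87 ± 0.25 (adjusted p = 0.00128). Cdkn1b (p27) overlapped between CM and DM+Met (0.03 ± 0.21, adjusted p = 0.955) and measured 8.04 and 8.53 in DM, above all libraries of the other media. The D-type cyclin Ccnd3 also fell (-0.54 ± 0.14, adjusted p = 0.0328).

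Promoter sequence was read for these lists because 2 of them share known elements, the cell cycle homology region with CCAAT boxes in mitotic genes and E2F sites in replication genes. The sequences are RefSeq promoters of the GRCm38.p6 assembly, from 250 bases before to 50 after the first listed start of each gene, and each motif was searched on both strands. The letters TTTGAA occurred in 22 of 29 promoters of the mitosis list against 18.1% of all promoters and 12.1% of those of tested genes, and CCAAT in 22 of 29 against 37.9% of all promoters and 38.7% of those of tested genes. TTTCCCGC or TTTGGCGC occurred in 10 of 31 promoters of the replication list against 1.63% of all promoters and 3.1% of those of tested genes. Among promoters of all genes called lower, TTTGAA occurred in 17.9%, CCAAT in 46.6% and the E2F letters in 5.1%. The list shares describe genes known for these elements and not the difference between the media. A match describes the letters and is not a bound site. The stretches of 100 bases shown here, 5′ to 3′, belong to the called members with the greatest decrease that hold the letters (both elements for mitosis) within the 250 bases before the start, so that members whose matches lie after it are left out, and capitals mark TTTGAA or its reverse complement and CCAAT or its reverse complement in the first 3 and the E2F letters in the last 3.
Ube2c (chr2:164769824-164769923, plus strand): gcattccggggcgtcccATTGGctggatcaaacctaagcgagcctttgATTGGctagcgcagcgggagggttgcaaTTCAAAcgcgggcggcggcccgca
Cdk1 (chr10:69352914-69353013, minus strand): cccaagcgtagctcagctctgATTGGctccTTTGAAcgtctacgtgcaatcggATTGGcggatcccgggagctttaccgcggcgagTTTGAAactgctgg
Ccnf (chr17:24251485-24251584, minus strand): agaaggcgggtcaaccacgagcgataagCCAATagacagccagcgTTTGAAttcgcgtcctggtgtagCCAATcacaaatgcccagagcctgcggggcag
Cdc6 (chr11:98907967-98908066, plus strand): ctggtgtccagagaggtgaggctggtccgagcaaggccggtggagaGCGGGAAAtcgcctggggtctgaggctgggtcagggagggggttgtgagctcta
Mcm6 (chr1:128359730-128359829, minus strand): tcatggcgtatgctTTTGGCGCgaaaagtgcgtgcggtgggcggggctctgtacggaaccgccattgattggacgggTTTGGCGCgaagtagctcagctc
Pola1 (chrX:93632240-93632339, minus strand): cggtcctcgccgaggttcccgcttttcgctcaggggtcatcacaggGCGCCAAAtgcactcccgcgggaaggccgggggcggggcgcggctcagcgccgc

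The Ube2c, Cdk1 and Ccnf stretches hold CCAAT at 2 places each, with TTTGAA at 1, 2 and 1 places, and Mcm6 carries TTTGGCGC at 2 places. Ccnf, the cyclin F subunit of a ubiquitin ligase, differed by -3.40 ± 0.63 (adjusted p = 0.00621), the replication licensing factor Cdc6 by -1.77 ± 0.50 (adjusted p = 0.0395), Mcm6 by -1.56 ± 0.21 (adjusted p = 0.00115) and Pola1, the catalytic subunit of the priming polymerase, by -1.29 ± 0.27 (adjusted p = 0.0122).

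Sterol genes were lower in DM+Met. Of 24 genes of sterol synthesis and uptake, 16 were called lower (66.7% against 8.36% of all genes), with a list median of -1.63. The 8 others lay between -1.30 and -0.28. Hmgcs1, which makes HMG-CoA for the mevalonate pathway, measured 8.04 and 7.82 in CM and 5.25 and 5.61 in DM+Met (difference -2.5 ± 0.23, adjusted p = 0.000183). Downstream of it, Pmvk, which phosphorylates mevalonate, measured 5.61 and 5.87 in CM and 2.63 and 2.57 in DM+Met (difference -3.14 ± 0.55, adjusted p = 0.00486), and Mvd, which decarboxylates the product, measured 6.15 and 6.55 in CM and 3.69 and 2.83 in DM+Met (difference -3.09 ± 0.39, adjusted p = 0.000969). Fdps, the farnesyl diphosphate synthase, measured 6.72 and 6.85 in CM and 3.62 and 3.96 in DM+Met (difference -3.0 ± 0.30, adjusted p = 0.000273). Like every called gene, these 4 did not overlap between the media. Sqle, the epoxidase at the entry to the sterol branch, measured 5.74 and 5.95 in CM and 4.29 and 4.11 in DM+Met (difference -1.65 ± 0.32, adjusted p = 0.00841). Idi1, the isopentenyl diphosphate isomerase, was near the threshold and measured 5.59 and 3.98 in CM and 2.98 and 2.93 in DM+Met (difference -1.83 ± 0.55, adjusted p = 0.04995). Its difference was -1.02 without CM library 1, the higher of the CM libraries, and -2.63 without CM library 2. Idi1 stayed called under 5 of 14 alternative settings and was not called with TMM or library totals without Rn45s. The list's median in DM was -1.59 against CM.

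The sterol regulatory element was searched as TCACNCCAC and occurred in 1 of 17 promoters of the list against 1.22% of all promoters and 1.03% of those of tested genes. Among promoters of genes called lower the share was 1.12%. The promoter that holds it is that of Hmgcs1, the sole match of the list, and is shown with the element in capitals.
Hmgcs1 (chr13:119690169-119690268, plus strand): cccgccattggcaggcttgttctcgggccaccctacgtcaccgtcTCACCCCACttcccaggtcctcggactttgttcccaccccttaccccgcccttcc

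Fatty acid genes were split by enzyme. The stearoyl-CoA desaturases, which put the first double bond into fatty acids, had the greatest decreases of the 16 genes of fatty acid synthesis. Scd2 measured 8.67 and 8.75 in CM and 4.58 and 4.27 in DM+Met (difference -4.29 ± 0.21, adjusted p = 1.01e-05) and Scd1 measured 6.08 and 6.29 in CM and 1.78 and 1.88 in DM+Met (difference -4.35 ± 0.42, adjusted p = 0.000207), and both stood far apart between the media. Fads1, the delta-5 desaturase, differed by -1.71 ± 0.42 (adjusted p = 0.0229), and Slc25a1, the mitochondrial citrate exporter, by -1.35 ± 0.36 (adjusted p = 0.0343). Fasn and Acly did not pass. Fasn, the fatty acid synthase, measured 6.43 and 6.48 in CM and 5.89 and 5.77 in DM+Met (difference -0.62 ± 0.24, adjusted p = 0.11), and Acly, which makes cytosolic acetyl-CoA, measured 6.43 and 6.55 in CM and 6.52 and 6.39 in DM+Met (difference -0.03 ± 0.20, adjusted p = 0.936) with overlapping libraries. With the elongase Elovl1 (-1.27), 5 of 16 genes were called lower (31.25% against 8.36% of all genes), with a list median of -0.73.

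Among 22 genes of fatty acid oxidation, 1 was called higher (4.55%, below the 6.92% over all genes) and 4 lower (18.2% against 8.36%). Acot2, a mitochondrial thioesterase that frees fatty acids from CoA, was the one that rose and measured 3.34 and 3.35 in CM and 6.04 and 6.30 in DM+Met (difference 2.82 ± 0.32, adjusted p = 0.000536), with 5.40 and 4.68 in DM. Acadl, the long-chain acyl-CoA dehydrogenase, fell and measured 6.95 and 7.02 in CM and 5.47 and 5.09 in DM+Met (difference -1.71 ± 0.24, adjusted p = 0.00145). Of the other decreases, the isomerase Eci2 differed by -1.49 ± 0.31 (adjusted p = 0.0116), the dehydrogenase Hadh by -1.03 ± 0.23 (adjusted p = 0.0152) and the short-chain dehydrogenase Acads by -0.97 ± 0.28 (adjusted p = 0.0467). Acads stayed called under 7 of 14 alternative settings and was not called with library totals without Rn45s. The rate-limiting transporter Cpt1a was not called, at 3.35 and 4.99 in CM and 4.88 and 5.03 in DM+Met (0.78 ± 0.47, adjusted p = 0.303); its difference was -0.04 without CM library 1 and 1.60 without CM library 2. Hadha, of the trifunctional protein, differed by -0.38 ± 0.23 (adjusted p = 0.31).

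**Figure D3:**
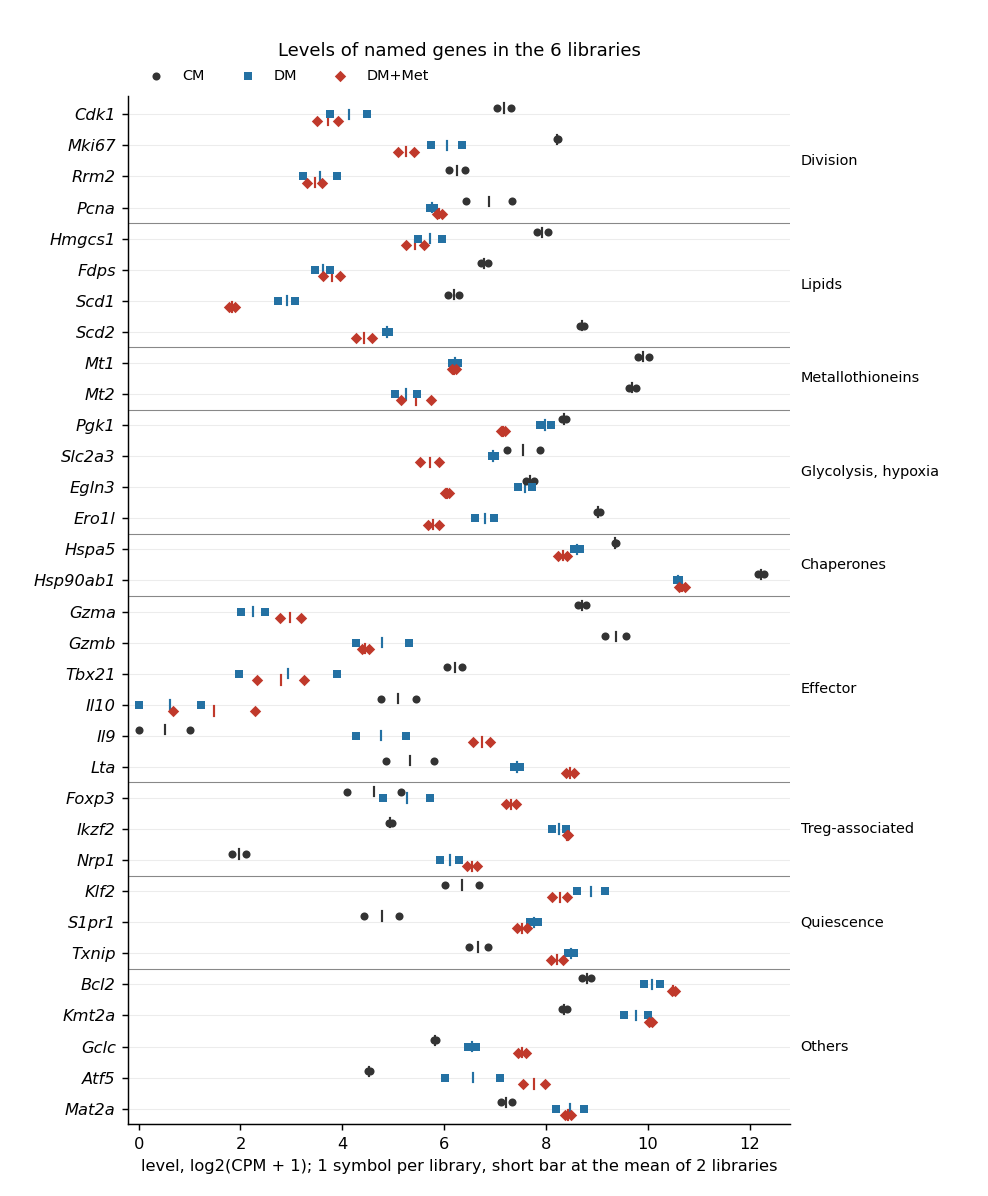
Levels of named genes in the 6 libraries (x axis, log2(CPM + 1)), with 1 symbol per library, circles for CM, squares for DM, diamonds for DM+Met, and a short bar at the mean of each medium. Mt1 sits at 9.81 and 10.02 in CM, 6.15 and 6.22 in DM+Met and 6.28 and 6.15 in DM. Foxp3 sits at 7.21 and 7.41 in DM+Met, above the other 4 libraries, and Egln3 at 6.01 and 6.09, below them.

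Glycolysis genes were lower in DM+Met. Of 21 genes, 14 were called lower than in CM (66.7% against 8.36% of all genes). The list median was -1.08, and the 7 others lay between -1.22 and 0.34. Slc2a3, a high-affinity glucose transporter, measured 7.23 and 7.87 in CM and 5.53 and 5.91 in DM+Met (difference -1.83 ± 0.24, adjusted p = 0.00107). Aldoc, the aldolase C isoform, had the greatest decrease of the list and measured 7.53 and 7.04 in CM and 3.55 and 3.22 in DM+Met (difference -3.90 ± 0.42, adjusted p = 0.000386). Pgam1, the phosphoglycerate mutase, measured 8.30 and 8.59 in CM and 6.87 and 6.81 in DM+Met (difference -1.61 ± 0.17, adjusted p = 0.000364). Pgk1, the first ATP-yielding enzyme of the pathway, measured 8.32 and 8.40 in CM and 7.2 and 7.13 in DM+Met (difference -1.2 ± 0.15, adjusted p = 0.001), and Ldha, which reduces pyruvate to lactate, measured 9.19 and 9.48 in CM and 8.21 and 8.07 in DM+Met (difference -1.19 ± 0.17, adjusted p = 0.00168). All of these had DM+Met libraries below both CM libraries. Hk2, the induced hexokinase, differed by -1.08 ± 0.22 (adjusted p = 0.00955), while Slc2a1, the main glucose transporter of activated T cells, differed by -0.43 ± 0.19 (adjusted p = 0.163).

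In DM the glycolysis list had a median of -0.37 for DM minus CM, against the same CM libraries, with 1 gene called higher and 7 lower. Pgk1 measured 7.88 and 8.10 in DM, Slc2a3 6.93 and 7.0 and Hk2 7.48 and 7.81, each above both DM+Met libraries. All 21 genes had a lower mean in DM+Met than in DM, with a median of -0.66. Limma called 0 of them in that comparison and voom on the recovered reads called 1, and 15 had an unadjusted p below 0.05, as had 1238 of the 12770 genes.

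Hypoxia-induced genes outside glycolysis were also lower. Of 17 genes, 13 were called lower (76.5% against 8.36% of all genes). The list median was -1.65, and the 4 others lay between -2.13 and -0.29. Ero1l, the oxidase that supplies disulfides in the endoplasmic reticulum, measured 9.06 and 9.0 in CM and 5.68 and 5.89 in DM+Met (difference -3.24 ± 0.18, adjusted p = 1.74e-05). Ndrg1, a stress-induced gene, measured 8.37 and 8.65 in CM and 6.50 and 6.47 in DM+Met (difference -2.03 ± 0.18, adjusted p = 0.00015), and Bnip3, a mitochondrial mitophagy receptor, measured 7.90 and 7.83 in CM and 6.15 and 6.10 in DM+Met (difference -1.74 ± 0.18, adjusted p = 0.000271). Higd1a, a mitochondrial protein induced by low oxygen, measured 8.03 and 8.28 in CM and 6.22 and 6.21 in DM+Met (difference -1.94 ± 0.18, adjusted p = 0.000171). All 4 genes stood apart between the media, as every called gene did. P4ha2, a collagen prolyl hydroxylase, differed by -2.5 ± 0.52 (adjusted p = 0.0111), and its relative P4ha1 by -0.52 ± 0.21 (adjusted p = 0.125).

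Egln3, the prolyl hydroxylase PHD3 that marks HIF-alpha for destruction and is itself a HIF target, differed between DM+Met and both other media. It measured 6.01 and 6.09 in DM+Met, against 7.62 and 7.77 in CM and 7.45 and 7.72 in DM. The difference from CM was -1.65 ± 0.18 (adjusted p = 0.000362), and DM+Met minus DM was -1.53 with an adjusted p of 0.0149, which made it 1 of the 7 genes called between these media. DM minus CM was -0.11 with an adjusted p of 0.705. The core of the hypoxia response element, ACGTG, occurred in 10 of 20 promoters of the glycolysis list against 19.7% of all promoters and 25.8% of those of tested genes. Among promoters of genes called lower the share was 28.5%.

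Genes of the respiratory chain were called lower in part. Of 75 nuclear-encoded genes of the respiratory chain, 24 were called lower (32% against 8.36% of all genes), with a median of -0.61. Uqcrfs1, the Rieske iron-sulfur protein of complex III, measured 7.33 and 7.0 in CM and 5.36 and 5.31 in DM+Met (difference -1.83 ± 0.22, adjusted p = 0.000764). Cox8a, a subunit of complex IV, measured 8.92 and 8.85 in CM and 7.37 and 7.54 in DM+Met (difference -1.43 ± 0.15, adjusted p = 0.000351), and Ndufv3, of complex I, differed by -1.53 ± 0.24 (adjusted p = 0.00287). Cox5a, also of complex IV, fell (-0.75 ± 0.19, adjusted p = 0.0262). Members that were not called include the succinate dehydrogenase subunit Sdhb, which differed by -0.80 ± 0.24 (adjusted p = 0.0533), the ATP synthase subunit Atp5b, by -0.37 ± 0.15 (adjusted p = 0.12), and the complex I subunit Ndufs1, by 0.24 ± 0.27 (adjusted p = 0.592). Of 77 mitochondrial ribosomal proteins, 6 were called lower, near the 8.36% of all genes. They were Mrpl45 (-1.73), Mrps30 (-1.22), Mrpl18 (-1.19), Mrpl12 (-0.87), Mrpl54 (-0.81) and Mrpl10 (-1.10), while Mrps18a was not called (-0.06).

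Cytosolic ribosomal proteins had 22 of 82 genes called lower (26.8% against 8.36% of all genes) and 1 higher (1.22% against 6.92%). Their median of -0.31 turned to 0.09 with library totals that include Rn45s. Ribosomal protein genes have many processed copies, and how reads shared with such copies were counted is not given in the sources used here. Rps2, of the small subunit, measured 9.68 and 9.46 in CM and 7.87 and 7.97 in DM+Met (difference -1.65 ± 0.15, adjusted p = 0.000171). Rps27a, made as a fusion with ubiquitin, measured 9.79 and 9.83 in CM and 8.57 and 8.2 in DM+Met (difference -1.42 ± 0.18, adjusted p = 0.001), and Rpl27a, of the large subunit, measured 11.17 and 11.23 in CM and 9.73 and 9.95 in DM+Met (difference -1.36 ± 0.16, adjusted p = 0.000654). The member that rose was Rps27 (1.21 ± 0.23, adjusted p = 0.0075). Rps3 and Rpl3 were not called, at -0.17 ± 0.15 (adjusted p = 0.5) and -0.56 ± 0.18 (adjusted p = 0.058). Of 30 genes that build ribosomes, 2 were called higher and 3 lower (6.67% and 10%, near the 6.92% and 8.36% over all genes). Npm1, a nucleolar chaperone, fell from 10.45 and 10.45 to 8.89 and 8.78 (-1.62 ± 0.13, adjusted p = 0.000111), and nucleolin (Ncl) fell from 11.12 and 10.995 to 10.19 and 10.27 (-0.83 ± 0.15, adjusted p = 0.00478). Rrp1b, a nucleolar processing factor, differed by -0.81 ± 0.22 (adjusted p = 0.0371). Myc, the transcription factor that drives this program, rose, at 3.72 and 3.57 in CM and 4.89 and 5.49 in DM+Met (difference 1.54 ± 0.35, adjusted p = 0.0158). Ubtf, which recruits RNA polymerase I to ribosomal DNA, also rose (1.09 ± 0.28, adjusted p = 0.0305), while fibrillarin (Fbl) differed by -0.89 ± 0.29 (adjusted p = 0.066) and Rrp12 by -1.09 ± 0.57 (adjusted p = 0.234), which was -0.39 without CM library 1 and -1.79 without CM library 2. CACGTG, the E-box that Myc and other factors bind and that contains the letters ACGTG, occurred in 6 of 24 promoters of this list against 7.24% of all promoters and 982 of the 9625 of tested genes.

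Genes for heat shock proteins were called lower in part. Of 19 heat shock genes, 10 were called lower (52.6% against 8.36% of all genes), with a list median of -0.77. The abundant cytosolic chaperones Hsp90ab1 and Hsp90aa1 fell, Hsp90ab1 from 12.17 and 12.28 to 10.73 and 10.61 (-1.55 ± 0.13, adjusted p = 0.00014) and Hsp90aa1 from 9.92 and 9.86 to 8.62 and 8.34 (-1.42 ± 0.15, adjusted p = 0.000313). The inducible HSP70 genes had the steepest decreases. Hspa1a measured 5.45 and 6.38 in CM and 0.88 and 0.59 in DM+Met (difference -5.18 ± 0.61, adjusted p = 0.0006) and Hspa1b measured 5.95 and 5.49 in CM and 1.63 and 1.95 in DM+Met (difference -3.93 ± 0.54, adjusted p = 0.00139); these copies are nearly identical, so the split of reads between them is uncertain. Hspa4l, an HSP110 family member, differed by -2.34 ± 0.44 (adjusted p = 0.00646) and the mitochondrial chaperonin Hspd1 by -1.32 ± 0.22 (adjusted p = 0.00368). The other called members were the constitutive Hspa8 (-1.0), Hspa4 (-0.77), Hspb1 (-2.64) and Hspe1 (-1.06), and Hsph1 was not called (-0.28 ± 0.25, adjusted p = 0.496). Hspa4 stayed called under 7 of 14 alternative settings and was not called with library totals without Rn45s.

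In the endoplasmic reticulum, 8 of 26 chaperone and unfolded protein response genes were called lower and 1 higher. These are 30.8% and 3.85%, against 8.36% and 6.92% over all genes. With library totals that include Rn45s, 6 were called lower and 5 higher. Hspa5 (BiP), the central chaperone, measured 9.38 and 9.35 in CM and 8.42 and 8.24 in DM+Met (difference -1.04 ± 0.14, adjusted p = 0.00129), and Hsp90b1 (GRP94) measured 9.42 and 9.21 in CM and 8.17 and 7.95 in DM+Met (difference -1.26 ± 0.15, adjusted p = 0.000663). P4hb, a protein disulfide isomerase, measured 8.45 and 8.51 in CM and 6.59 and 6.48 in DM+Met (difference -1.94 ± 0.18, adjusted p = 0.000169). Sec61b, of the translocation channel, differed by -1.40 ± 0.21 (adjusted p = 0.00198) and Xbp1, a transcription factor of the response, by -0.65 ± 0.18 (adjusted p = 0.0392). Xbp1 stayed called under 8 of 14 alternative settings and was not called with library totals without Rn45s. Canx (-0.75), Pdia6 (-1.23) and Sec61a1 (-1.03) also fell, and Herpud1, of the degradation branch, was the member that rose (1.15 ± 0.25, adjusted p = 0.013). Hyou1 and Dnajb9 were not called, at -0.26 ± 0.40 (adjusted p = 0.709) and 1.07 ± 0.56 (adjusted p = 0.238). Proteasome subunits were called lower in 6 of 32 cases (18.75% against 8.36% of all genes). They were Psmc6 (-1.43), Psma5 (-1.36), Psmd8 (-1.29), Psma2 (-0.90), Psmd4 (-0.68) and Psmd14 (-0.85), while Psma3, Psmb5 and Psmd1 were not called, at -0.13, -0.45 and -0.46.

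DM+Met lacks every amino acid but methionine apart from what the dialyzed serum brings. In the ATF4 list, 2 of 23 genes were called higher (8.7%, near the 6.92% over all genes) and 5 lower (21.7% against 8.36%), with a median of -0.08. Atf5, a transcription factor induced with ATF4, rose from 4.54 and 4.50 to 7.55 and 7.98 (3.24 ± 0.32, adjusted p = 0.000237). Atf4 itself, whose protein level is set mainly by translation, measured 8.84 and 9.23 in CM and 8.13 and 8.06 in DM+Met (difference -0.94 ± 0.17, adjusted p = 0.00499). Asns, the asparagine synthetase and a defining ATF4 target, fell from 5.47 and 4.86 to 3.66 and 3.84 (-1.41 ± 0.39, adjusted p = 0.0391). Asns stayed called under 7 of 14 alternative settings and was not called with library totals without Rn45s. Eif4ebp1, the translation repressor 4E-BP1, fell from 7.01 and 6.81 to 5.15 and 4.87 (-1.90 ± 0.25, adjusted p = 0.0011). The other members called were Slc7a5, Psat1 and Psph, given below. Ddit3 (CHOP) measured 7.84 and 8.02 in CM and 8.16 and 8.28 in DM+Met (difference 0.29 ± 0.17, adjusted p = 0.301), Chac1, a glutathione-degrading enzyme, differed by 1.2 ± 0.54 (adjusted p = 0.163), and neither was called. Trib3, a pseudokinase, differed by 0.73 ± 0.33 (adjusted p = 0.171), which was 1.25 without CM library 1 and 0.22 without CM library 2. TGATGNAA, the C/EBP-ATF element that ATF4 binds, occurred in 6 of 20 promoters of the list against 4.06% of all promoters and 2.35% of those of tested genes.

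Amino acid transporters had 4 of 19 genes called higher (21.1% against 6.92% of all genes). Slc7a1, a cationic amino acid transporter, measured 5.83 and 5.57 in CM and 7.11 and 6.98 in DM+Met (difference 1.35 ± 0.20, adjusted p = 0.00215). Slc7a5, the light chain of the large neutral amino acid transporter that also carries methionine, measured 5.07 and 5.47 in CM and 5.99 and 6.38 in DM+Met (difference 0.92 ± 0.25, adjusted p = 0.0379), with 5.55 and 5.38 in DM. Slc38a1, a glutamine transporter, differed by 0.73 ± 0.20 (adjusted p = 0.0356) and the glycine transporter Slc6a9 by 2.01 ± 0.52 (adjusted p = 0.0295). Slc43a2, another carrier of large neutral amino acids including methionine, was not called, at 3.64 and 4.13 in DM+Met against 4.98 and 4.90 in CM (-1.05 ± 0.33, adjusted p = 0.0582) and 4.97 and 5.43 in DM. Slc1a5 differed by 0.30 ± 0.22 (adjusted p = 0.395) and Slc38a2 by -0.20 ± 0.17 (adjusted p = 0.465). Among 20 cytosolic tRNA synthetases, 4 were called lower (20% against 8.36% of all genes), whereas library totals that include Rn45s gave 5 called higher and 0 lower. The 4 were both phenylalanine subunits, Farsa (-1.17 ± 0.27, adjusted p = 0.0166) and Farsb (-0.82 ± 0.19, adjusted p = 0.0173), the glycine enzyme Gars (-0.77 ± 0.17, adjusted p = 0.0135) and the valine enzyme Vars (-0.76 ± 0.22, adjusted p = 0.043). Mars, the methionine enzyme, measured 7.69 and 7.95 in CM and 8.02 and 8.12 in DM+Met (difference 0.25 ± 0.19, adjusted p = 0.401), Lars differed by 0.47 ± 0.17 (adjusted p = 0.0922) and Wars by 0.37 ± 0.38 (adjusted p = 0.557).

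In the methionine cycle, salvage and polyamine list, 1 of 21 genes was called higher and 2 lower (4.76% and 9.52%, near the 6.92% and 8.36% over all genes). Mat2a, which makes S-adenosylmethionine and whose messenger is stabilized when that product runs low, rose from 7.32 and 7.12 in CM to 8.38 and 8.50 in DM+Met (1.22 ± 0.20, adjusted p = 0.00317) and measured 8.75 and 8.19 in DM. Both DM+Met libraries lay between the DM libraries. Ahcy, which clears S-adenosylhomocysteine, fell from 6.34 and 6.03 to 4.91 and 4.43 (-1.52 ± 0.39, adjusted p = 0.0284), and Sat1, which acetylates polyamines for export, differed by -0.74 ± 0.20 (adjusted p = 0.0357). Odc1, the ornithine decarboxylase, was not called at 6.91 and 6.77 in CM and 6.39 and 6.24 in DM+Met (difference -0.53 ± 0.20, adjusted p = 0.107) and measured 5.27 and 5.20 in DM, with DM minus CM at -1.60 and an adjusted p of 0.00115. The spermidine synthase Srm differed by -1.02 ± 0.34 (adjusted p = 0.0734), which was -0.56 without CM library 1 and -1.48 without CM library 2.

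Of 19 genes of serine synthesis and folate metabolism, 2 were called lower (10.5%, near the 8.36% over all genes). They were the serine pathway enzymes Psat1 (6.77 and 6.81 in CM and 5.71 and 5.69 in DM+Met, -1.09 ± 0.20, adjusted p = 0.00563) and Psph (-1.24 ± 0.33, adjusted p = 0.0323). The first enzyme, Phgdh, measured 6.30 and 6.22 in CM and 5.96 and 6.28 in DM+Met (difference -0.14 ± 0.22, adjusted p = 0.714), and the mitochondrial folate enzymes Shmt2 and Mthfd2 differed by 0.09 ± 0.24 (adjusted p = 0.848) and -0.06 ± 0.16 (adjusted p = 0.856), with overlapping libraries in all 3. Of 22 genes of purine and pyrimidine synthesis, 5 were called lower (22.7% against 8.36% of all genes). Paics differed by -1.18 ± 0.25 (adjusted p = 0.0122), Impdh1 by -1.47 ± 0.26 (adjusted p = 0.00534), Nme2 by -1.26 ± 0.16 (adjusted p = 0.00107), Adss by -1.2 ± 0.22 (adjusted p = 0.00581) and its relative Adssl1 by -2.98 ± 0.69 (adjusted p = 0.0175). Ppat, the first purine enzyme, Cad, the first pyrimidine enzyme, and Impdh2 were not called, at -0.17, -0.42 and -0.85.

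Of 26 nutrient sensing genes 2 were called, both higher (7.69%, near the 6.92% over all genes). Tsc2, which restrains mTORC1, measured 3.77 and 4.34 in CM and 5.84 and 5.94 in DM+Met (difference 1.84 ± 0.30, adjusted p = 0.0035), and Fnip1, a partner of folliculin and AMPK, measured 6.92 and 6.71 in CM and 7.72 and 7.53 in DM+Met (difference 0.81 ± 0.17, adjusted p = 0.0105). Prkaa1, the AMPK catalytic subunit, measured 4.88 and 5.32 in CM and 5.03 and 4.82 in DM+Met (difference -0.18 ± 0.30, adjusted p = 0.735) with overlapping libraries. The sestrins Sesn1, Sesn2 and Sesn3, which report amino acid or stress status to mTORC1, were not called, at 0.54, -0.14 and -0.08. Lysosome and autophagy genes gave 2 higher and 1 lower of 38 (5.26% and 2.63%, below the 6.92% and 8.36% over all genes). The autophagy receptor Sqstm1 differed by 0.72 ± 0.17 (adjusted p = 0.0187), the protease Ctss by 0.99 ± 0.28 (adjusted p = 0.0426) and the cholesterol carrier Npc2 by -1.31 ± 0.16 (adjusted p = 0.000667). The membrane protein Lamp1 (0.64 ± 0.19, adjusted p = 0.0503) passed under 6 of 14 alternative settings, and Ctsd and Gabarapl1 were not called, at 0.02 and -0.20.

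Antioxidant genes split in direction. Of 25 glutathione and NRF2 genes, 3 were called higher (12% against 6.92% of all genes) and 5 lower (20% against 8.36%). Both subunits of the rate-limiting enzyme of glutathione synthesis rose, Gclc from 5.81 and 5.85 to 7.61 and 7.45 (1.70 ± 0.18, adjusted p = 0.000362) and Gclm from 3.75 and 4.08 to 5.70 and 5.31 (1.59 ± 0.36, adjusted p = 0.0168). Hmox1, the heme oxygenase, measured 2.44 and 3.99 in CM and 5.25 and 5.18 in DM+Met (difference 2.0 ± 0.52, adjusted p = 0.0289), with a difference of 1.23 without CM library 1 and 2.77 without CM library 2. The pentose phosphate enzyme Tkt fell (-1.73 ± 0.26, adjusted p = 0.00229), as did catalase, Cat (-1.2 ± 0.36, adjusted p = 0.0486), the superoxide dismutase Sod1 (-0.86), the peroxiredoxin Prdx6 (-0.81) and thioredoxin, Txn1 (-1.03). Cat stayed called under 7 of 14 alternative settings and was not called with TMM or library totals without Rn45s. Slc7a11, the cystine importer, had 32 and 0 reads in the libraries of CM against 79 and 93 in those of DM+Met, a difference of 1.93 ± 0.75 (adjusted p = 0.113) that was 3.03 without CM library 1 and 0.82 without CM library 2. Txnrd1, the thioredoxin reductase, was not called (0.17 ± 0.27, adjusted p = 0.719).

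Metallothioneins, the cysteine-rich proteins that bind zinc and copper, were far lower in DM+Met. Mt1 measured 9.81 and 10.02 in CM, 6.15 and 6.22 in DM+Met and 6.28 and 6.15 in DM (-3.72 ± 0.16, adjusted p = 8.81e-06 for DM+Met against CM). Mt2 measured 9.76 and 9.64, 5.16 and 5.75 and 5.03 and 5.47 in the same order (-4.25 ± 0.24, adjusted p = 1.74e-05). Both were close to their levels in DM, with DM+Met minus DM at -0.03 and 0.20. The zinc exporter Slc30a1 moved the other way, from 2.99 and 3.10 to 4.67 and 4.81 (1.70 ± 0.39, adjusted p = 0.0168), as did the importer Slc39a6 (0.93 ± 0.27, adjusted p = 0.044), and Slc39a10 was not called (-0.21 ± 0.43, adjusted p = 0.789). Letters of the metal response element, TGCACNC or TGCGCNC, occurred in 5 of 12 promoters of the list of 14 against 25.6% of all promoters and 35.6% of those of tested genes. The promoters of both metallothioneins, which are neighbours on their chromosome, are shown with these letters in capitals.
Mt1 (chr8:94178989-94179088, plus strand): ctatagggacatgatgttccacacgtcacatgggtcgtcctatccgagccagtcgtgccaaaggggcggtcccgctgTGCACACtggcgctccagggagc
Mt2 (chr8:94172483-94172582, plus strand): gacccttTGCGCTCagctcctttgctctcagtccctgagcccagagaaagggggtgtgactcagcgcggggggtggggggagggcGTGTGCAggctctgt

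Genes that write methyl marks on histones and DNA with S-adenosylmethionine, or oxidize those on DNA, changed in both directions. Of 34, 9 were called higher (26.5% against 6.92% of all genes) and 6 lower (17.6% against 8.36%). Kmt2a, the MLL1 histone H3K4 methyltransferase, rose from 8.41 and 8.31 to 10.08 and 10.02 (1.69 ± 0.17, adjusted p = 0.000231). Setd1b, another H3K4 enzyme, rose from 4.95 and 5.05 to 6.40 and 6.70 (1.55 ± 0.29, adjusted p = 0.00619), and Suv420h1, an H4K20 enzyme, from 4.41 and 4.57 to 5.85 and 6.32 (1.59 ± 0.26, adjusted p = 0.0035). The other enzymes that rose were Kmt2c (1.22), Kmt2d (1.51), Nsd1 (1.15), Whsc1l1 (0.69), the de novo DNA methyltransferase Dnmt3a (1.09, or 0.66 without CM library 1) and the demethylating dioxygenase Tet3 (1.51). Among those that fell, Dnmt1 and Uhrf1 act at the replication fork. Dnmt1, the maintenance DNA methyltransferase, fell from 7.26 and 7.13 to 5.65 and 5.88 (-1.43 ± 0.21, adjusted p = 0.00169), Ezh2, of the Polycomb complex, from 8.2 and 8.61 to 7.71 and 7.57 (-0.77 ± 0.18, adjusted p = 0.0168), and Suv39h1, an H3K9 enzyme, differed by -1.41 ± 0.41 (adjusted p = 0.0468). Suv39h1 stayed called under 7 of 14 alternative settings and was not called with TMM or library totals without Rn45s. Uhrf1, the partner of Dnmt1, had the greatest decrease of the list (-1.53 ± 0.31, adjusted p = 0.00958), and Whsc1 (-0.74) and Tet2 (-0.84) fell too. Dot1l, the H3K79 enzyme, was not called and measured 6.39 and 6.58 in CM and 5.91 and 5.93 in DM+Met (difference -0.57 ± 0.21, adjusted p = 0.0931), nor was Ezh1 (0.08 ± 0.25, adjusted p = 0.874). In DM, Kmt2a measured 9.54 and 9.999 and Dot1l 6.19 and 6.50.

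Quiescence genes were higher in DM+Met. In the list of naive and quiescent T cell genes, 16 of 27 were called higher (6.92% of all genes), the list median was 0.95, and the 11 others lay between -0.78 and 1.09. S1pr1, the receptor that lets T cells leave lymphoid organs, measured 4.43 and 5.12 in CM and 7.42 and 7.62 in DM+Met (difference 2.74 ± 0.24, adjusted p = 0.000149). Klf2, the factor that drives S1pr1 and homing receptors, measured 6.69 and 6.02 in CM and 8.12 and 8.42 in DM+Met (difference 1.91 ± 0.25, adjusted p = 0.00113), and Klf3 measured 4.01 and 4.23 in CM and 6.78 and 7.07 in DM+Met (difference 2.80 ± 0.25, adjusted p = 0.000169). These 3 genes stood apart between the media in every library, as every called gene did. Tob1, an antiproliferative factor, had the greatest increase of the list (2.84 ± 0.63, adjusted p = 0.0153). The homing receptor Ccr7 also rose and measured 7.70 and 7.75 in CM and 8.49 and 8.51 in DM+Met (difference 0.78 ± 0.15, adjusted p = 0.00774). Txnip, which limits glucose uptake, rose from 6.86 and 6.49 to 8.11 and 8.34 (1.55 ± 0.18, adjusted p = 0.000518) and Igfbp4 from 6.62 and 6.80 to 8.09 and 8.66 (1.66 ± 0.22, adjusted p = 0.00107).

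Some genes of the naive state were not called. Tcf7 (TCF-1) measured 4.13 and 4.07 in CM and 5.09 and 5.28 in DM+Met (difference 1.09 ± 0.35, adjusted p = 0.0624) and passed under 5 of 14 alternative settings. Il7r, the IL-7 receptor chain, was not called, at 8.25 and 8.03 in CM and 7.87 and 7.70 in DM+Met (difference -0.36 ± 0.16, adjusted p = 0.16). In DM the list had 16 genes called higher and 1 lower, with a median of 0.89.

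Genes associated with regulatory T cells gave 7 of 16 higher (43.75% against 6.92% of all genes) and 3 lower (18.75% against 8.36%). Foxp3, the defining transcription factor, measured 5.16 and 4.10 in CM, 7.21 and 7.41 in DM+Met and 5.71 and 4.81 in DM. DM+Met exceeded CM by 2.68 ± 0.38, adjusted p = 0.00168, whereas DM exceeded it by 0.63 with an adjusted p of 0.285, and DM+Met minus DM was 2.05 with an adjusted p of 0.158. Ikzf2 (Helios) rose from 4.97 and 4.91 to 8.43 and 8.41 (3.48 ± 0.17, adjusted p = 1.01e-05) and measured 8.40 and 8.11 in DM. Nrp1 (neuropilin-1) measured 2.11 and 1.83 in CM and 6.64 and 6.45 in DM+Met (difference 4.58 ± 0.30, adjusted p = 3e-05), and Gpr83, a receptor enriched in regulatory cells, measured 2.18 and 1.55 in CM and 6.61 and 6.43 in DM+Met (difference 4.66 ± 0.36, adjusted p = 7.59e-05). Lrrc32 (GARP) differed by 1.93 ± 0.20 (adjusted p = 0.000346), Ikzf4 (Eos) by 1.99 ± 0.20 (adjusted p = 0.000237) and Izumo1r (folate receptor 4) by 0.97 ± 0.20 (adjusted p = 0.00953). Ctla4, Il10 and Prdm1, which regulatory cells also use, were lower. Ctla4 fell from 8.63 and 8.56 to 6.99 and 7.0 (-1.60 ± 0.18, adjusted p = 0.000429) and Il10, whose 46 and 7 reads in DM+Met are few, from 5.44 and 4.77 to 2.28 and 0.67 (-3.63 ± 0.71, adjusted p = 0.00833).

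IL-2 receptor and STAT5 target genes were called higher in 7 of 21 cases and lower in 4. Il2ra, the high-affinity receptor chain, measured 10.004 and 9.86 in CM and 10.41 and 10.27 in DM+Met (difference 0.41 ± 0.14, adjusted p = 0.0741) and passed under 6 of 14 alternative settings. Among feedback inhibitors of cytokine signals, Socs2 measured 7.12 and 7.26 in CM and 9.10 and 8.90 in DM+Met (difference 1.81 ± 0.15, adjusted p = 0.000111), Socs1 measured 6.35 and 6.27 in CM and 8.08 and 8.22 in DM+Met (difference 1.84 ± 0.26, adjusted p = 0.00165) and Cish measured 8.01 and 8.37 in CM and 9.06 and 9.15 in DM+Met (difference 0.92 ± 0.16, adjusted p = 0.00429). In all 3, both DM+Met libraries lay above CM. The kinase Jak1 rose by 0.69 ± 0.18 (adjusted p = 0.0284). The receptor chain Il2rb (-0.61), Stat5a (-0.73), the kinase Pim2 (-0.91) and the repressor Gfi1 (-1.33) fell. Bcl2, the survival factor, rose from 8.71 and 8.89 to 10.48 and 10.53 (1.70 ± 0.15, adjusted p = 0.000151) and measured 9.92 and 10.24 in DM. In the BCL2 family of 17 genes, 5 were called higher (29.4% against 6.92% of all genes) and 1 lower (5.88% against 8.36%). Bcl2a1a, Bcl2a1b and Bcl2a1d, near-identical copies whose reads may be shared, differed by 1.54, 1.09 and 1.44 and count as 3 of the 5, and Mcl1 differed by 0.51 ± 0.15 (adjusted p = 0.0462). Bcl2l1 (Bcl-xL) and Bcl2l11 (Bim) were not called, at 0.00 and -0.14. The member that fell is Bnip3, counted with the hypoxia genes above.

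Effector cytokines were divided, with 7 of 18 called higher (38.9% against 6.92% of all genes) and 5 lower (27.8% against 8.36%). Il9, a mast cell growth factor, had 0 and 8 reads in the libraries of CM against 1422 and 1118 in those of DM+Met and the greatest increase of any gene named by size, 0.00 and 1.02 against 6.91 and 6.57 (6.23 ± 0.49, adjusted p = 8.96e-05). It measured 4.26 and 5.26 in DM, between the other media. Lta (lymphotoxin) rose from 5.81 and 4.85 to 8.40 and 8.54 (3.14 ± 0.27, adjusted p = 0.000149) and Tnf from 3.46 and 3.24 to 6.03 and 5.91 (2.62 ± 0.28, adjusted p = 0.000352). The other increases were Il6 (2.86), Il16 (1.01), Ltb (1.33) and Tnfsf11, the RANK ligand (2.11). Il24 fell from 6.14 and 5.76 to 1.12 and 0.32 (-5.23 ± 0.56, adjusted p = 0.000362). Il17a (-3.84), Il22 (-1.92) and Il21 (-2.82) also fell, as did Il10 above. Ifng, the defining type 1 cytokine, measured 3.32 and 4.32 in CM and 1.88 and 2.26 in DM+Met (difference -1.75 ± 0.67, adjusted p = 0.111), and Il4, the defining type 2 cytokine, measured 2.5 and 1.41 in CM and 0.74 and 1.55 in DM+Met (difference -0.81 ± 0.62, adjusted p = 0.425) with overlapping libraries. Il2 was below the minimum of reads and was not tested.

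Genes for cytotoxic proteins gave 5 of 12 lower (41.7% against 8.36% of all genes) and 1 higher (8.33%, near the 6.92% over all genes). Gzma (granzyme A) had the greatest decrease of any gene named by size, from 8.78 and 8.63 in CM to 2.78 and 3.18 in DM+Met (-5.72 ± 0.33, adjusted p = 1.74e-05), and measured 2.48 and 2.0 in DM. Gzmb (granzyme B) fell from 9.58 and 9.16 to 4.38 and 4.53 (-4.92 ± 0.32, adjusted p = 3e-05). In reads, Gzmb went from 6698 and 4471 to 237 and 263. Nkg7, a granule membrane protein, differed by -1.47 ± 0.42 (adjusted p = 0.0412), the granule proteoglycan Srgn by -0.90 ± 0.17 (adjusted p = 0.00761) and the protease inhibitor Serpinb6b by -1.68 ± 0.23 (adjusted p = 0.00129), while Serpinb9, the inhibitor of granzyme B, rose (1.76 ± 0.48, adjusted p = 0.0345). Nkg7 stayed called under 7 of 14 alternative settings and was not called with library totals without Rn45s. Fasl measured 0.00 and 2.61 in CM and 1.91 and 2.55 in DM+Met (difference 0.93 ± 0.82, adjusted p = 0.492), with overlapping libraries. Prf1 was not tested.

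Transcription factors of effector cells changed in 13 of 21 cases, 8 lower (38.1% against 8.36% of all genes) and 5 higher (23.8% against 6.92%). Tbx21 (T-bet), which directs type 1 differentiation, fell from 6.35 and 6.07 to 3.25 and 2.33 (-3.42 ± 0.61, adjusted p = 0.00528). Irf8 fell from 8.32 and 8.71 to 6.28 and 6.25 (-2.26 ± 0.20, adjusted p = 0.000149) and Prdm1 (Blimp-1) from 5.78 and 5.78 to 4.62 and 3.41 (-1.76 ± 0.39, adjusted p = 0.0147, or -1.16 without DM+Met library 2). Tox, a factor linked to chronic stimulation, rose from 1.94 and 2.52 to 5.50 and 5.97 (3.50 ± 0.35, adjusted p = 0.000237), and Myb rose from 5.21 and 4.63 to 7.14 and 7.33 (2.31 ± 0.26, adjusted p = 0.000465). The other factors called were Irf4 (0.62), Runx1 (1.43) and Ikzf1 (0.76), which rose, and Batf3 (-1.45), Ikzf3 (-1.52), Bhlhe40 (-0.98), Runx3 (-1.49) and Hif1a (-0.75), which fell. Batf and Bcl6 were not called, at -0.36 and 0.20. Of 18 type 2 helper genes, 6 were called lower (33.3% against 8.36% of all genes) and 2 higher (11.1% against 6.92%). Gata3, the type 2 regulator, measured 7.93 and 8.44 in CM and 7.72 and 7.83 in DM+Met (difference -0.41 ± 0.20, adjusted p = 0.201) and was not called. Nfil3 fell from 7.09 and 7.62 to 4.52 and 4.63 (-2.78 ± 0.38, adjusted p = 0.00139), Zbtb32, a repressor of cytokine genes, from 5.73 and 5.57 to 0.22 and 0.51 (-5.29 ± 0.62, adjusted p = 0.000593), and Cyp11a1, the first enzyme of steroid synthesis, from 6.38 and 6.24 to 1.91 and 0.00 (-5.36 ± 0.73, adjusted p = 0.00136). Penk, which encodes an enkephalin precursor, rose (2.01 ± 0.42, adjusted p = 0.0115), as did the IL-4 signal transducer Stat6 (0.63 ± 0.18, adjusted p = 0.0465), while Maf (-0.69) and Il4ra (-0.55) fell and Ccr8 was not called (-0.54 ± 0.67, adjusted p = 0.631).

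Inhibitory receptors gave 4 of 15 higher (26.7% against 6.92% of all genes) and 2 lower (13.3% against 8.36%). Pdcd1 (PD-1) had 2 and 42 reads in the libraries of CM against 81 and 110 in those of DM+Met, a difference of 1.67 ± 0.77 (adjusted p = 0.179) that was 0.49 without CM library 1 and 2.86 without CM library 2, and it was not called. Nt5e (CD73), which makes adenosine, rose from 2.35 and 2.76 to 4.89 and 4.94 (2.36 ± 0.43, adjusted p = 0.00549) and Btla from 4.50 and 5.19 to 6.21 and 6.10 (1.31 ± 0.28, adjusted p = 0.0131). Pdcd1lg2, the ligand PD-L2, rose by 1.98 ± 0.59 (adjusted p = 0.0497), or 1.19 without CM library 1, and Cd5 is given above. Lag3 fell from 3.71 and 3.99 to 1.37 and 1.38 (-2.47 ± 0.53, adjusted p = 0.0129), as did Ctla4 above. Havcr2 and Tigit were not tested. Costimulatory receptors gave 4 of 15 higher (26.7% against 6.92% of all genes) and 1 lower (6.67% against 8.36%). Tnfsf8 (CD30 ligand) rose from 5.18 and 5.43 to 7.89 and 7.64 (2.46 ± 0.24, adjusted p = 0.000221), Cd2 from 8.81 and 9.03 to 9.92 and 9.85 (0.96 ± 0.14, adjusted p = 0.00168), Tnfrsf25 (DR3) by 1.13 ± 0.24 (adjusted p = 0.0114) and Cd226 by 2.39 ± 0.58 (adjusted p = 0.0223). Tnfrsf4 (OX40) fell (-0.62 ± 0.16, adjusted p = 0.0308). Icos, Cd27 and Cd40lg were not called, at -0.10, 0.19 and 0.96.

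Signaling genes downstream of the T cell receptor changed in 8 of 27 cases, 4 each way. This is 14.8% each, against 6.92% higher and 8.36% lower over all genes. Fyn, a kinase near the receptor, rose from 6.60 and 6.84 to 7.87 and 8.12 (1.27 ± 0.17, adjusted p = 0.00129). Zap70, the kinase bound to the zeta chain, fell from 7.32 and 7.41 to 6.28 and 6.30 (-1.07 ± 0.19, adjusted p = 0.00506), and Malt1, of the NF-kappaB branch, fell (-1.46 ± 0.20, adjusted p = 0.00152). The kinase Txk (0.81) and the adaptor Grap2 (0.80) also rose, and the phosphatases Ptpn6 (-0.60) and Ptpn22 (-1.12) fell. Lck was not called (-0.32 ± 0.20, adjusted p = 0.313), and the Lat libraries overlapped, at 6.88 and 7.31 in CM and 7.02 and 7.17 in DM+Met. Immediate early genes were also split, with 4 of 25 higher (16% against 6.92% of all genes) and 4 lower (16% against 8.36%). Egr1 rose from 4.86 and 5.44 to 6.83 and 6.76 (1.65 ± 0.27, adjusted p = 0.00323), while Ier3 fell from 8.05 and 8.31 to 5.0 and 4.90 (-3.23 ± 0.23, adjusted p = 5.49e-05), and Fosl2 (-1.48), Junb (-1.09) and Jun (-0.90) also fell. Ier2 (1.24), the NF-kappaB inhibitor Nfkbia (0.46) and Dusp1, given below, rose. Nr4a1, Fos and Egr2 were not called, at 0.18, 0.90 and 1.39, and without CM library 1 or CM library 2 Fos was at 0.57 or 1.23 and Egr2 at 0.55 or 2.22. Nor was Dusp5 called, which had 15 and 4 reads in CM and 0 in both DM+Met libraries.

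Some interferon-stimulated genes rose in DM+Met. Of 38 genes, 14 were called higher (36.8% against 6.92% of all genes) and 1 lower (2.63% against 8.36%). The 23 others lay between -2.52 and 1.33, and the list median was 0.64. Ifi47, an interferon-inducible GTPase, measured 6.49 and 5.99 in CM and 8.01 and 7.96 in DM+Met (difference 1.74 ± 0.20, adjusted p = 0.000518). Slfn1, of the Schlafen family, measured 5.61 and 5.16 in CM and 7.0 and 7.42 in DM+Met (difference 1.82 ± 0.23, adjusted p = 0.000884), and Rtp4 measured 2.53 and 1.19 in CM and 4.31 and 4.03 in DM+Met (difference 2.31 ± 0.56, adjusted p = 0.0225). All 3 stood apart between the media, as every called gene did. Ifit2 had the greatest increase of the list (3.15 ± 0.76, adjusted p = 0.0221), and Ifi27l2a was the member that fell (-0.95 ± 0.19, adjusted p = 0.00945). Isg15, the ubiquitin-like modifier, measured 2.86 and 3.28 in CM, 4.48 and 4.67 in DM+Met and 2.99 and 2.73 in DM (1.5 ± 0.44, adjusted p = 0.0461) and was not called under 5 of 14 alternative settings. Irf7 and Gbp2 differed by 0.25 ± 0.52 (adjusted p = 0.793) and 0.40 ± 0.26 (adjusted p = 0.333) with overlapping libraries. In DM, 7 genes of the list were called higher and 2 lower, with a median of 0.53.

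The interferon response letters GAAANNGAA occurred in 19 of 29 promoters of the interferon list against 8.57% of all promoters and 7.46% of those of tested genes. Among promoters of genes called higher the share was 9.82%. The called genes with the greatest increase that hold them before the start are shown, with these letters or their reverse complement in capitals.
Ifit1 (chr19:34640745-34640844, plus strand): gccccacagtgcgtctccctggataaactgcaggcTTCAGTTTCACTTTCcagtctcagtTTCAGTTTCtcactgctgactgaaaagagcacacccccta
Slfn5 (chr11:82951913-82952012, plus strand): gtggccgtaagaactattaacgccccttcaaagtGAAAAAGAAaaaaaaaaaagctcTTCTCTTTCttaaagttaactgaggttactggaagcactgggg
Gbp5 (chr3:142496725-142496824, plus strand): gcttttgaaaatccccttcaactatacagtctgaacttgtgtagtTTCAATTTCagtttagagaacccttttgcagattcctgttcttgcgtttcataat

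Ifit1, which binds foreign RNA caps, measured 0.85 and 0.47 in CM and 3.33 and 2.80 in DM+Met (difference 2.41 ± 0.56, adjusted p = 0.0183). Slfn5 measured 3.34 and 3.12 in CM and 5.07 and 4.78 in DM+Met (difference 1.69 ± 0.35, adjusted p = 0.0103) and Gbp5, a guanylate-binding protein, measured 4.95 and 5.35 in CM and 6.89 and 6.58 in DM+Met (difference 1.58 ± 0.35, adjusted p = 0.0138). In the class I antigen presentation list of 19 genes, 4 were called higher and 1 lower. These are 21.1% and 5.26%, against 6.92% and 8.36% over all genes. B2m, the invariant light chain and one of the most abundant transcripts here, rose from 12.10 and 12.14 to 12.77 and 12.72 (0.62 ± 0.17, adjusted p = 0.0333) and measured 12.16 and 11.74 in DM. H2-K1 measured 10.81 and 10.65 in CM, 11.36 and 11.14 in DM+Met and 10.14 and 10.30 in DM. It was higher than CM in DM+Met (0.52 ± 0.14, adjusted p = 0.0395) and lower than CM in DM (-0.51, adjusted p = 0.0388), and DM+Met minus DM was 1.03 with an adjusted p of 0.0543. Tapbp, the tapasin loading factor, rose (0.86 ± 0.19, adjusted p = 0.0147), as did the transactivator Nlrc5 (0.88 ± 0.25, adjusted p = 0.0416), while the immunoproteasome subunit Psmb9 fell (-1.09 ± 0.19, adjusted p = 0.00487). Tap1 and Psmb8 were not called, at -0.50 and -0.14. Class I genes are a multigene family whose reads can be split between copies.

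Chemokines and their receptors were called higher in 5 of 21 cases (23.8% against 6.92% of all genes). Ccl17 had 1 and 0 reads in the libraries of CM against 344 and 277 in those of DM+Met (4.67 ± 0.47, adjusted p = 0.000245), and Ccl22, a ligand of the same receptor, rose from 3.87 and 4.40 to 6.05 and 5.91 (1.85 ± 0.29, adjusted p = 0.00263). Ccr6 rose from 2.59 and 2.39 to 4.27 and 4.57 (1.93 ± 0.40, adjusted p = 0.0111). Ccr9, the gut-homing receptor, rose by 2.37 ± 0.59 (adjusted p = 0.0253), and Ccr7 is counted here and among the quiescence genes. Ccl5, Cxcr3 and Cxcr4 were not called, at 0.66, 1.38 and -0.77. Of 13 glucocorticoid response genes, 4 were called higher (30.8% against 6.92% of all genes) and 2 lower (15.4% against 8.36%). The receptor Nr3c1 differed by 0.91 ± 0.19 (adjusted p = 0.0112), the kinase Sgk1 by 1.74 ± 0.40 (adjusted p = 0.018), the phosphatase Dusp1 by 1.25 ± 0.34 (adjusted p = 0.0373) and Tsc22d1 by 2.15 ± 0.52 (adjusted p = 0.0208), all higher, while the cochaperone Fkbp5 fell from 6.02 and 5.88 to 4.32 and 4.28 (-1.65 ± 0.38, adjusted p = 0.0184) and Ddit4, an mTORC1 inhibitor also induced by hypoxia, from 9.92 and 10.15 to 8.2 and 8.25 (-1.81 ± 0.26, adjusted p = 0.00168). Tsc22d3 (GILZ), a defining target, measured 6.31 and 6.08 in CM and 6.30 and 6.19 in DM+Met (difference 0.05 ± 0.20, adjusted p = 0.895) with overlapping libraries.

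Genes with the greatest changes that belong to no list were of varied kinds. Among increases, Ntrk3, a neurotrophin receptor, had 0 and 7 reads in the libraries of CM against 288 and 300 in those of DM+Met (4.22 ± 0.52, adjusted p = 0.0008), the class I-like gene H2-M2 had 1 and 0 reads in CM against 371 and 237 in DM+Met (4.62 ± 0.54, adjusted p = 0.000617), and Amica1 (JAML), an adhesion molecule, rose from 1.76 and 3.42 to 6.87 and 6.72 (4.20 ± 0.44, adjusted p = 0.000347). Lpl, the lipoprotein lipase, rose from 0.00 and 1.19 to 4.40 and 5.36 (4.28 ± 0.54, adjusted p = 0.000927). Snord55, a small nucleolar RNA encoded within an intron of a host gene, measured 0.00 and 1.02 in CM and 4.61 and 5.11 in DM+Met (difference 4.35 ± 0.61, adjusted p = 0.00148). Among decreases, Tg (thyroglobulin) measured 7.29 and 7.59 in CM and 3.02 and 2.92 in DM+Met (difference -4.47 ± 0.34, adjusted p = 7.59e-05), Selenbp1, a selenium-binding protein, measured 5.55 and 5.84 in CM and 1.0 and 0.67 in DM+Met (difference -4.86 ± 0.51, adjusted p = 0.000347), and Dpf1 measured 5.05 and 5.75 in CM and 0.12 and 1.07 in DM+Met (difference -4.81 ± 0.81, adjusted p = 0.00397). The DM libraries of these 8 genes were nearer to DM+Met than to CM, for example 6.91 and 6.83 for Amica1 and 3.86 and 3.19 for Tg.

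Besides Egln3, the genes called between DM+Met and DM were 6, named here because the count is small and after their values were seen. Ctse, the protease cathepsin E, measured 6.07 and 5.61 in CM, 6.68 and 6.60 in DM+Met and 3.29 and 3.32 in DM, with DM+Met minus DM at 3.33 (adjusted p = 0.00168). Gh, the growth hormone gene, measured 5.14 and 5.07 in CM, 5.59 and 5.85 in DM+Met and 1.15 and 1.47 in DM, with DM+Met minus DM at 4.41 (adjusted p = 0.00168). In both, the DM libraries stood below those of the other media, and DM+Met was not called against CM. The class I gene H2-Q9 (1.48) and the ribosomal protein genes Rps15a (1.12) and Rplp1 (1.67) were also higher in DM+Met than in DM, and the pseudogene Rps15a-ps6 was lower (-1.26). None of these 6 was called between DM+Met and CM, and H2-Q9, Rps15a and its pseudogene copy can share reads with near-identical genes.

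Markers of other cell types moved with some of these results, and their part in them was not tested. Of 22 myeloid markers tested, Mmp12 and Ctss were called higher (9.09%, near the 6.92% over all genes). The summed CPM of the 23 myeloid markers with a row, tested or not, was 288 to 375 in CM, 602 to 652 in DM+Met and 552 to 572 in DM. Mmp12 alone measured 3.03 and 0.00 in CM and 6.71 and 6.58 in DM+Met (difference 5.13 ± 0.75, adjusted p = 0.00178), from 63 and 0 CM reads. Of the defining markers, Lyz2 measured 0.42 and 1.55 in CM and 2.38 and 2.38 in DM+Met, Adgre1 had 6 and 0 reads in the libraries of CM against 0 and 27 in those of DM+Met, and Itgam had 11 and 0 in CM against 8 and 22 in DM+Met. Csf1r, Itgax and Fcer1g were not called either, at -0.21 ± 0.95 (adjusted p = 0.91), 1.43 ± 0.56 (adjusted p = 0.116) and 0.77 ± 0.36 (adjusted p = 0.179). These values stand beside the increases of Ccl17, Ccl22, Lpl and Mmp12, which myeloid cells can also express. Of 9 MHC class II genes tested, 4 were called lower (44.4% against 8.36% of all genes). The summed CPM of the 10 with a row was 632 to 709 in CM and 319 to 356 in DM+Met. H2-Ab1 differed by -1.74 ± 0.23 (adjusted p = 0.00123), H2-Eb1 by -1.51 ± 0.24 (adjusted p = 0.00306), H2-DMb1 by -2.08 ± 0.57 (adjusted p = 0.0359) and H2-Ob by -1.61 ± 0.46 (adjusted p = 0.0431), whereas H2-Aa and Cd74 were not called, at -0.24 and -0.27.

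Of 9 erythroid and platelet markers, the 5 hemoglobin genes were called lower, among them Hba-a1 (5.45 and 5.93 in CM and 3.79 and 4.23 in DM+Met, -1.68 ± 0.33, adjusted p = 0.00862) and Hbb-bs (-2.05 ± 0.53, adjusted p = 0.0296), whose copy Hbb-b1 carries the same reads in 4 libraries and was called with it (-2.01 ± 0.59, adjusted p = 0.0461). Hbb-b1 stayed called under 8 of 14 alternative settings and was not called with TMM or library totals without Rn45s. The 5 hemoglobin genes are 55.6% of the 9 tested, against 8.36% of all genes. The summed CPM of the 13 erythroid and platelet markers with a row, tested or not, was 129 to 133 in CM and 38.5 to 38.6 in DM+Met. Of 11 B cell markers, Fcer2a was called higher (2.30, or 1.44 without CM library 2) and Cd22 lower (-2.08). At 1 each, this is 9.09% each, near the 6.92% and 8.36% over all genes. Cd79a was at -0.53 ± 0.51 (adjusted p = 0.531) and Ms4a1 at 1.09 ± 0.43 (adjusted p = 0.117). The summed CPM of the 14 B cell markers with a row, tested or not, was 132 to 138 in CM and 91.3 to 114 in DM+Met. Of 10 CD8 T and NK markers, 1, Klrb1c, was called higher (2.10) and 1, Cd8a, lower (5.14 and 5.39 in CM and 2.98 and 4.04 in DM+Met, -1.76 ± 0.47, adjusted p = 0.0317). This is 10% each, near the 6.92% and 8.36% over all genes. Cd8b1 was at -1.26 ± 0.44 (adjusted p = 0.0806). The summed CPM of the 15 CD8 T and NK markers with a row, tested or not, was 77.3 to 86.6 in CM and 53.0 to 64.7 in DM+Met. Gzma and Gzmb, which CD8 T and NK cells also express, fell in the same libraries. The platelet gene Pf4 was not called (0.92 ± 0.66, adjusted p = 0.392), and Pax5, Ncr1 and Ppbp were below the minimum of reads.

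Because Rn45s took a smaller share of reads in DM+Met, the scaling was varied. With TMM recomputed without Rn45s, 1902 genes were called, 1888 of them among the 1952, and with library totals that leave Rn45s out 1906 were called, 1094 higher and 812 lower. Library totals that include Rn45s gave 2700, 2059 higher and 641 lower. The median over all genes was 0.06 on the deposited scale, 0.07 with TMM without Rn45s, 0.18 with totals without it and 0.41 with totals that include it. Under totals without Rn45s, mitosis had 33 genes called lower of 34, sterols 15 of 24, glycolysis 14 of 21 and hypoxia 13 of 17, while replication had 17 of 36, the respiratory chain 19 of 75 and cytosolic ribosomal proteins 10 of 82. Among increases, the quiescence list had 18 of 27, interferon-stimulated genes 15 of 38 and regulatory T cell genes 8 of 16. The median of the cytosolic ribosomal proteins turned from -0.31 to 0.09 with totals that include Rn45s, and that of the ATF4 list from -0.08 to 0.01 without Rn45s and 0.25 with it. With totals that include Rn45s the median also changed sign in 9 other lists, to 0.06 for mitochondrial ribosomal proteins, 0.05 for chaperones of the endoplasmic reticulum, 0.27 for tRNA synthetases, 0.25 for serine and folate genes, 0.04 for purine and pyrimidine synthesis, 0.30 for lysosome and autophagy genes, 0.31 for metallothioneins and zinc transporters, 0.13 for effector cytokines and 0.00242 for the methionine cycle list, all of which were below 0 on the deposited scale. The direction of these 11 lists rests on the scaling. For 5 of them the median also changed sign with totals without Rn45s. Besides the ATF4 list, these were tRNA synthetases (0.006), lysosome and autophagy genes (0.036), metallothioneins and zinc transporters (0.071) and effector cytokines (0.019). With TMM without Rn45s, the median of the cytotoxic list turned from 0.009 to -0.067. Relative to the median of all genes, mitosis was at -3.36, glycolysis at -1.14 and the quiescence list at 0.90 under totals without Rn45s.

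**Figure D4:**
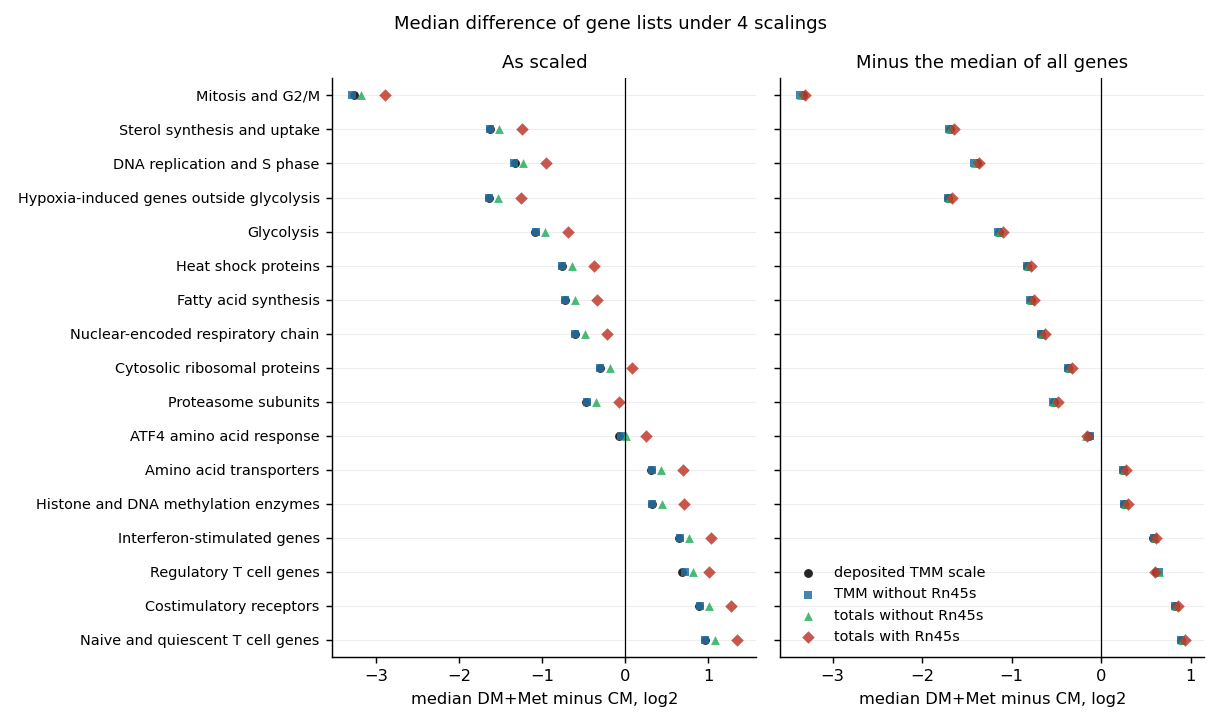
Median DM+Met minus CM difference (x axis, log2) of 17 gene lists under 4 scalings, on the left as scaled and on the right after subtracting the median of all genes under the same scaling. Circles are the deposited TMM scale, squares TMM without Rn45s, triangles library totals without Rn45s and diamonds library totals with Rn45s. The symbols spread on the left, where cytosolic ribosomal proteins run from -0.31 to 0.09, and nearly coincide on the right.

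Leaving out any of the 4 libraries lowered the number of genes called in each of the 48 lists, except that nutrient sensing still had 2 without CM library 2. Without CM library 1, CM library 2, DM+Met library 1 and DM+Met library 2 in turn, mitosis had 23, 25, 22 and 21 genes called lower, with medians of -3.28, -3.35, -3.18 and -3.24. Replication had 8, 8, 3 and 5 and medians of -1.27, -1.49, -1.34 and -1.38. Sterol genes had 10, 10, 6 and 5, glycolysis 12, 12, 9 and 8 and hypoxia 8, 10, 5 and 5, in the same order. The quiescence list had 8, 9, 7 and 5 genes called higher, with medians of 1.04, 0.80, 1.0 and 0.89, and interferon-stimulated genes had 6, 4, 2 and 1, with medians of 0.84, 0.74, 0.62 and 0.82. Also in this order, the respiratory chain had 7, 10, 5 and 3 genes called lower, cytosolic ribosomal proteins 4, 6, 4 and 4 and heat shock proteins 4, 7, 3 and 4, and regulatory T cell genes had 6, 7, 5 and 5 called higher. Some medians near 0 changed sign, among them that of the G1 list from 0.04 to -0.33 without CM library 2 and that of the effector transcription factors from 0.25 to -0.08 without CM library 1.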

How the data were processed

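RNA from activated CD4 T cells was profiled in 6 libraries, 2 each for CM, DM and DM+Met. Reads were aligned and counted by the authors, and Bowtie2, bedtools and mm10 stand in the submitters' processing notes, while the annotation and strand setting are not given in the sources used here. The deposited values are log2(CPM + 1) after TMM scaling. Whole reads could be recovered from them for at least 99.776% of the values of up to 300 reads tested, within 0.1 of a read, in each library. Of 23282 rows, 12770 with at least 0.946 CPM in 2 libraries and 15 reads in all were kept.

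All 6 libraries were fitted with limma 3.58.1 (R 4.3.3, intensity trend) on the deposited log2 values with no covariate, and p-values were adjusted by Benjamini-Hochberg over all rows tested at a threshold of 0.05. In simulated data for DM+Met against CM on 12426 genes, 72% of changes of 1.5 and 100% of changes of 3 on the log2 scale were recovered, with 2.82% of calls false. The simulation changed only 100 genes of each size, all well above the minimum level, with the same assumed spread for every gene. Its rates therefore need not hold for weakly expressed genes or for the spread of these libraries. Libraries of a medium differed beyond sampling noise (9.67 to 26.0 chi-square per degree of freedom). Members, gene lists and motifs were chosen with earlier results of these data known. The genes named are the 10 with the greatest increase and the 10 with the greatest decrease at a mean of at least 10 CPM whose libraries do not overlap, fixed members of each list, and up to 3 further called members of each. Other named members, mostly the remaining called genes of a list, were named after their values were seen. Alternatives varied scaling, filter, pseudocount, test, samples in the fit, file number and libraries. Promoters are from RefSeq for GRCm38.p6 (the assembly that mm10 names), and 9625 of 12770 tested symbols matched one. Figures were drawn with matplotlib 3.10.9. A few genes of the lists are not reported here by name.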

Additional observations from a re-analysis of the deposited data

How the results depend on the processing

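Besides leaving out a single library, 14 settings were varied. Under 12 of them, the count of genes called between DM+Met and CM stayed within 1.5 times of 1952. It ran from 1577 with a pseudocount of 0.1 to 2700 with library totals that include Rn45s. With the latter totals 76.3% of calls were higher in DM+Met, against 45.3% on the deposited scale (57.4% with totals without Rn45s). The exceptions were 944 without an intensity trend and 1265 without a filter on low values. Leaving out 1 library gave 268 to 1622 genes. Between DM and CM the trend mattered likewise, with 1329 genes without it, and leaving out 1 library gave 541 to 1061. Between DM+Met and DM, the 7 genes became 27 when each of the libraries had to hold at least 10 reads, 55 with library totals that include Rn45s, 14 with a robust prior, 21 with voom on the recovered reads, 17 with a mean level of at least 2, 13 with a pseudocount of 5, 2 without a filter, and 0 without a trend (1192 at an unadjusted p below 0.05). Leaving out a library gave 0 genes in that comparison by limma, with 431 to 2006 at an unadjusted p below 0.05. The causes were not tested. No named gene changed direction while called. The balance of calls did turn in some lists. Cytosolic tRNA synthetases had 0 genes called higher and 4 lower on the deposited scale. With library totals that include Rn45s they had 5 higher and 0 lower. With the file number as a replicate block, 1797 genes were called, 1728 of them among the 1952. Same-numbered libraries did not deviate together (correlations of 0.00, -0.02 and -0.03 between media). With 2 libraries a medium, this cannot show whether the numbers pair samples. Depth limits genes near the minimum of 0.946 CPM, for which a few reads decide a value, and intervals from 2 libraries a medium cover only the spread between them.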
